A study of Arabidopsis thaliana and Zea mays with 12 samples.

Results

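The thionin gene THI2.2 and the plant defensin genes LCR68 and PDF1.2 were followed over the 6 Arabidopsis thaliana arrays of the study. They are 3 of the 15 thionin and defensin genes read by a probe set with 1 annotated gene, among 22746 probe sets in all after removal of controls. The members were picked by name, with their values on these arrays already known from the comparison of the phenotype labelled Br with the phenotype labelled Ag. Their levels and differences are therefore described here without a test, and only genes outside the trio are tested. RNA came from leaf tissue of plants grown from seed for 2 weeks and cut around midday of their light period, with 3 one-colour Affymetrix ATH1 arrays of Br and 3 of Ag. The labels give the phenotype name alone, with no genotype, allele or treatment for either group, and both groups were grown and harvested alike. Several plants were combined into 1 RNA pool per array, by a number of plants that the labels do not give, and the arrays are titled as biological replicates. P-values therefore measure the spread between pools, and the number of arrays limits the precision.

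Thionins and defensins are small secreted peptides held in shape by disulfide bridges between cysteines. Many of them disturb the membranes of fungi or bacteria, and plants make them both constantly and after attack. In Arabidopsis, PDF1.2 is the standard reporter of the joint jasmonate and ethylene defence response, driven by the transcription factors ERF1 and ORA59, and THI2.1 is a thionin gene known to respond to jasmonate. Salicylic acid signalling, the other main defence branch, often acts against the jasmonate branch. THI2.2 encodes a second thionin of the same type as THI2.1. LCR68 is listed in the gene table also as PDF2.3, a member of the second defensin class.

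Values are deposited array intensities on a linear scale, which the deposited table holds scaled to a common mean, and log2 differences are Br minus Ag on the scale of log2(intensity + 16) after quantile normalization. The array medians lay between 35.3 and 37.5 in Br and between 32.3 and 35.8 in Ag. In a principal component analysis, the leading axis (45.5% of the variance) placed Br array 1 at 5.57, the other Br arrays at 34.5 and 42.6, and the Ag arrays between -32.8 and -24.6. RNA quality, read from how bright the 3' end of a control transcript is relative to its 5' end, moved with Br and Ag: for 4 of 6 control pairs every Ag array was above every Br array, and the other 2 pairs overlapped. For one ubiquitin pair it ran from 2.27 to 2.94 in Br and from 3.37 to 5.22 in Ag. The part of RNA quality in the differences below was not tested. The leaf label was checked on 3 measured mesophyll genes, RCA, LHCB4.1 and PSAE-1, whose summed intensity ran from 13721 to 14983 in Br and from 15900 to 20097 in Ag, so leaf genes were bright on every array. Their log2 differences after normalization were between -0.02 and 0.06 and missed the threshold (limma adjusted p of at least 0.88). In deposited intensity, every Br array lay below every Ag array for all 3 genes (8.67% of all probe sets). The deposited and the normalized scale thus differ for these bright genes.

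THI2.2 (AT5G36910, probe set 249645_at) was bright in Br and dim in Ag. Its intensity was 720, 1408 and 1216 on Br arrays 1 to 3, against 5.46, 18.2 and 8.81 on Ag arrays 1 to 3. All the Br arrays lay above the median probe set of their array and all the Ag arrays below it, and the groups were far from overlapping. The mean was 1115 ± 355 in Br and 10.8 ± 6.59 in Ag (SD, n = 3 each), a ratio of means of 103. Set array against array, the ratio of a Br array to an Ag array was 39.6 at its lowest and 258 at its highest. The Ag signals lay around the lower quartile of their arrays (6.78 to 9.87) and were not shown to be above background, so these ratios have no exact size and set no upper limit. The log2 difference was 5.38 ± 0.31 (SE) with the pseudocount of 16, 6.65 with 1 and 3.96 with 64, so its size follows the pseudocount. With pseudocounts of 16 and 64 it was the largest positive difference of the 22746 probe sets, and with 1, without Ag array 1 or without both first arrays, 1 other probe set exceeded it. Within Br the first array, which also stood nearest to Ag on that axis, gave the lowest THI2.2 signal, and without it the log2 difference was 5.69. In pooled leaf RNA, fewer cells that make a transcript and less of it per cell cannot be told apart. One probe set reads THI2.2, so no second probe set bears on its low signal in Ag.

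LCR68 (AT2G02130, probe set 266118_at) was bright in both groups and moderately higher in Br. Its intensity was 983, 907 and 1005 on the Br arrays, against 602, 634 and 506 on the Ag arrays. The lowest Br array was above the highest Ag array, and array against array the ratio ran from 1.43 to 1.99. The mean was 965 ± 51.6 in Br and 580 ± 66.7 in Ag (SD, n = 3 each), a ratio of 1.66 and a log2 difference of 0.75 ± 0.13 (SE). Unlike THI2.2, LCR68 varied little inside a group: the SD was 5.34% of the mean in Br and 11.5% in Ag, where THI2.2 had 31.8% and 61.0%. The 61.0% comes from Ag signals of THI2.2 that were not shown to be above background. The first Br array was not the lowest of its group for LCR68. A larger positive difference was found for 549 of the 22746 probe sets, or 2.41%. That share followed the pseudocount, at 8.49% with 1 and 1.05% with 64.

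PDF1.2 (AT5G44420, probe set 249052_at) was dim on every array. It read 12.4, 0.96 and 11.2 on the Br arrays, against 22.9, 13.5 and 9.98 on the Ag arrays. None of the 6 values reached the median of its array, and the groups overlapped. The mean was 8.17 ± 6.27 in Br and 15.5 ± 6.70 in Ag (SD, n = 3 each), with a log2 difference of -0.48 ± 0.22 (SE). The second Br array, at 0.96, carried much of that gap, and without it the log2 difference was -0.26. The trio thus holds a near on-off difference, a moderate one in a steady bright gene, and a dim gene whose groups overlap. The groups did not overlap for 2 of the 3 members, where 20.7% of all probe sets did not overlap; the members were chosen on this contrast, and nothing is read from that count.

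**Figure D1:**
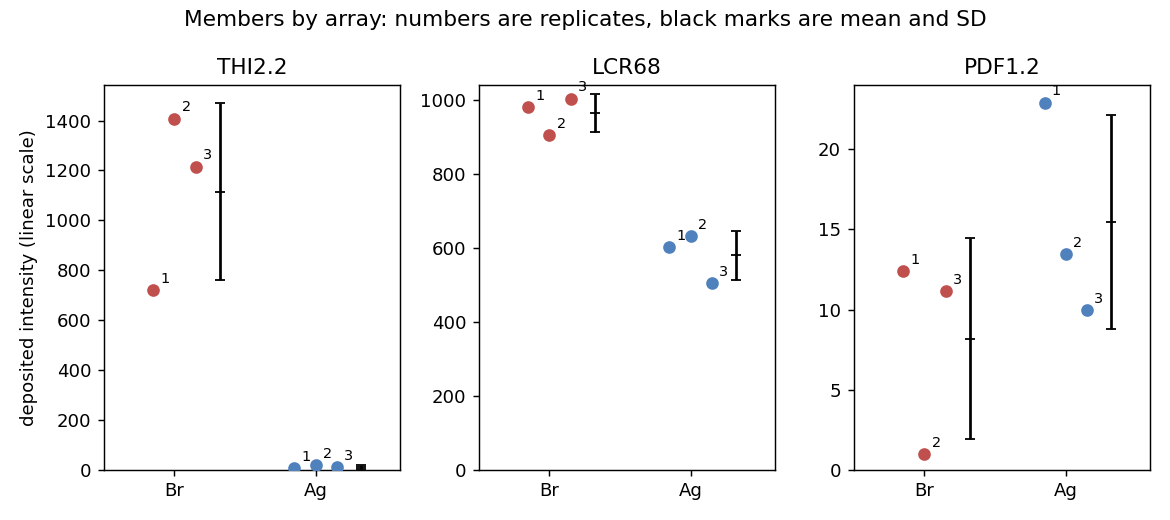
Deposited intensity (vertical axis, linear, one scale per panel) of THI2.2, LCR68 and PDF1.2 on the 3 Br and the 3 Ag arrays, with replicate numbers beside the points and the mean and SD in black. THI2.2 reads 720 to 1408 in Br and at most 18.2 in Ag, LCR68 is at least 907 in Br and at most 634 in Ag, and the PDF1.2 values of the groups overlap.

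The gene table names 91 thionin and defensin genes by the same wording, and 12 of them beyond the trio were measured. By limma 0 of the 12 passed an adjusted p of 0.05 over all probe sets, where 2.08% of all probe sets passed, and 2 of the 12 had an unadjusted p under 0.05, where 16.1% of all did. The groups did not overlap for 3 of the 12 (20.7% of all probe sets), 2 higher (12.1% of all) and 1 lower (8.67%) in Br. Of the log2 differences 6 were positive and 6 negative, with a median of 0.02, against -0.002 over all probe sets. The calls, the overlap and the median were thus near those of the whole array. Only 1 of the 12, LCR69, had a mean above that of the median probe set. With so few genes, most of them dim, the counts cannot show whether the difference extends to these relatives.

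The other thionin gene, THI2.1, read 21.3, 108 and 20.0 on the Br arrays, against 16.5, 15.2 and 6.74 on the Ag arrays. Every Br array was above every Ag array, but the second Br array alone was far above the rest, and the change missed the threshold (log2 difference 0.87 ± 0.48 SE, limma adjusted p = 0.44). Without that array the log2 difference was 0.27. The other measured thionin was therefore not shown to differ, and its log2 difference was far below the 5.38 of THI2.2; the difference between the 2 genes was not tested.

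Within the first defensin class, PDF1.2b lay lower in Br. It read 7.54, 9.65 and 8.83 on the Br arrays, against 61.9, 27.0 and 18.6 on the Ag arrays, with no overlap. The log2 difference was -1.05 ± 0.28 (SE) and missed the threshold (limma adjusted p = 0.12; unadjusted p = 0.0063). The first Ag array was the highest for PDF1.2b and also for PDF1.2. The name of the PDF1.2b probe set, 257365_x_at, carries the manufacturer's mark for probes shared with other sequences, so its signal and that of near-identical copies cannot be told apart. PDF1.2c, the gene next to PDF1.2, was not analysed here.

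PDF1.4 read 33.3, 24.8 and 12.1 in Br and 34.0, 43.1 and 19.5 in Ag, with overlapping groups (log2 difference -0.37, limma adjusted p = 0.57). Without Br array 3 the log2 difference was -0.13, without Ag array 2 it was -0.19 and without Ag array 3 it was -0.57. LCR67, listed also as PDF1.1, stayed between 0.73 and 1.74 in Br and between 0.76 and 1.39 in Ag. That is below the lower quartile of every array, so its intensities say little about a difference.

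LCR68 lies in a cluster of second-class defensin genes, and the 3 measured relatives there missed the threshold. In the order of protein-coding genes, PDF2.1 comes directly before LCR68, LCR72 (also PDF2.6) directly after it, and LCR69 (also PDF2.2) lies 3 places before it. LCR69 read 2006, 605 and 1051 in Br, against 810, 883 and 386 in Ag, above the median of every array. Its mean was higher in Br, 1221 ± 716 against 693 ± 269 in Ag (SD, n = 3 each), yet the groups overlapped and the log2 difference of 0.74 ± 0.48 (SE) missed the threshold (limma adjusted p = 0.51). Single arrays moved that value, to 0.30 without Br array 1, 0.37 without Ag array 3 and 1.18 without Br array 2, where LCR68 stayed between 0.66 and 0.81 without any one array.

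The 2 genes that flank LCR68 were dim in both groups. PDF2.1 read from 0.78 to 6.75 in Br and from 0.39 to 5.63 in Ag, and LCR72 from 1.78 to 6.73 in Br and from 1.67 to 9.50 in Ag. Neither differed beyond the spread of the arrays (limma adjusted p = 0.94 for PDF2.1 and 0.73 for LCR72).

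LCR66, listed also as PDF2.4, had the largest positive log2 difference of the 12. It read 35.1, 6.77 and 32.1 on the Br arrays, against 4.64, 2.46 and 0.46 on the Ag arrays, without overlap and below the array median on all 6. The log2 difference was 1.02 ± 0.29 (SE) and missed the threshold (limma adjusted p = 0.14). Without the second Br array it passed (log2 difference 1.36, limma adjusted p = 0.032), the one setting under which a family gene outside the trio did. PDF2.5, LCR24, LCR59 and LCR80 had no value above 14.1 in Br or 12.7 in Ag, with overlapping groups and limma adjusted p of at least 0.59.

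**Figure D2:**
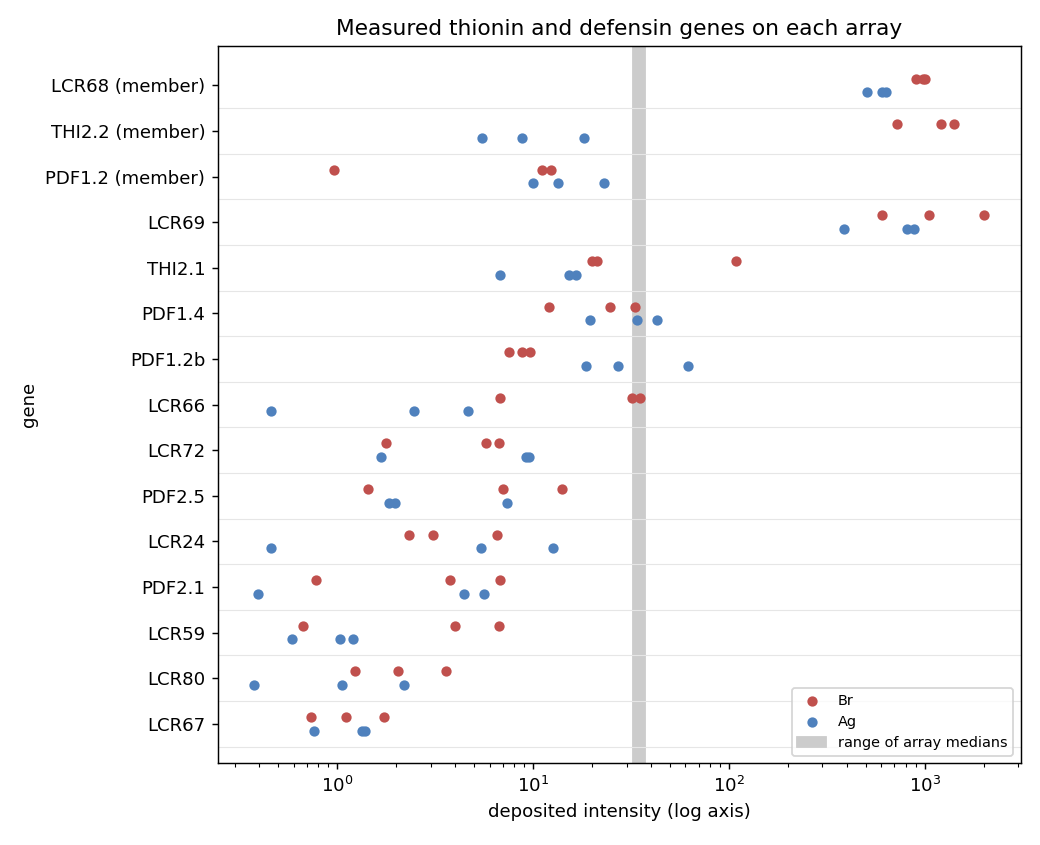
Deposited intensity (horizontal log axis) of all 15 measured thionin and defensin genes, with Br points above Ag points in each row and the range of the array medians shaded. LCR68 and LCR69 lie above the array medians on all 6 arrays and THI2.2 on the 3 Br arrays, and most of the others lie below the array medians in both groups.

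The genes beside each member on the chromosome were examined next, a choice made after the members' values were seen. Of the 10 protein-coding genes on each side of THI2.2, 6 were measured, and by limma 0 passed (2.08% of all probe sets did) and 2 had an unadjusted p under 0.05 (16.1% of all). Their log2 differences ran from -0.31 to 0.58, against 5.38 for THI2.2. The nearest measured one, AT5G36900, was dim at 7.02, 5.01 and 1.67 in Br and 7.87, 8.93 and 8.44 in Ag. BGLU42, of the beta-glucosidase family and 3 places before THI2.2, read 77.1 ± 10.7 in Br and 45.2 ± 16.7 in Ag (SD, n = 3 each; limma adjusted p = 0.22). Neighbours of THI2.2 without a probe set of 1 annotated gene were not analysed here.

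Around LCR68, 8 of 20 neighbours were measured, with log2 differences from -0.53 to 0.74, the upper end being LCR69. By limma 0 of these passed (2.08% of all) and 1 had an unadjusted p under 0.05 (16.1% of all). Around PDF1.2, 12 of 20 were measured, from -0.40 to 0.24, and likewise 0 passed by limma and 1 had an unadjusted p under 0.05, against the same 2.08% and 16.1% of all probe sets.

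**Figure D3:**
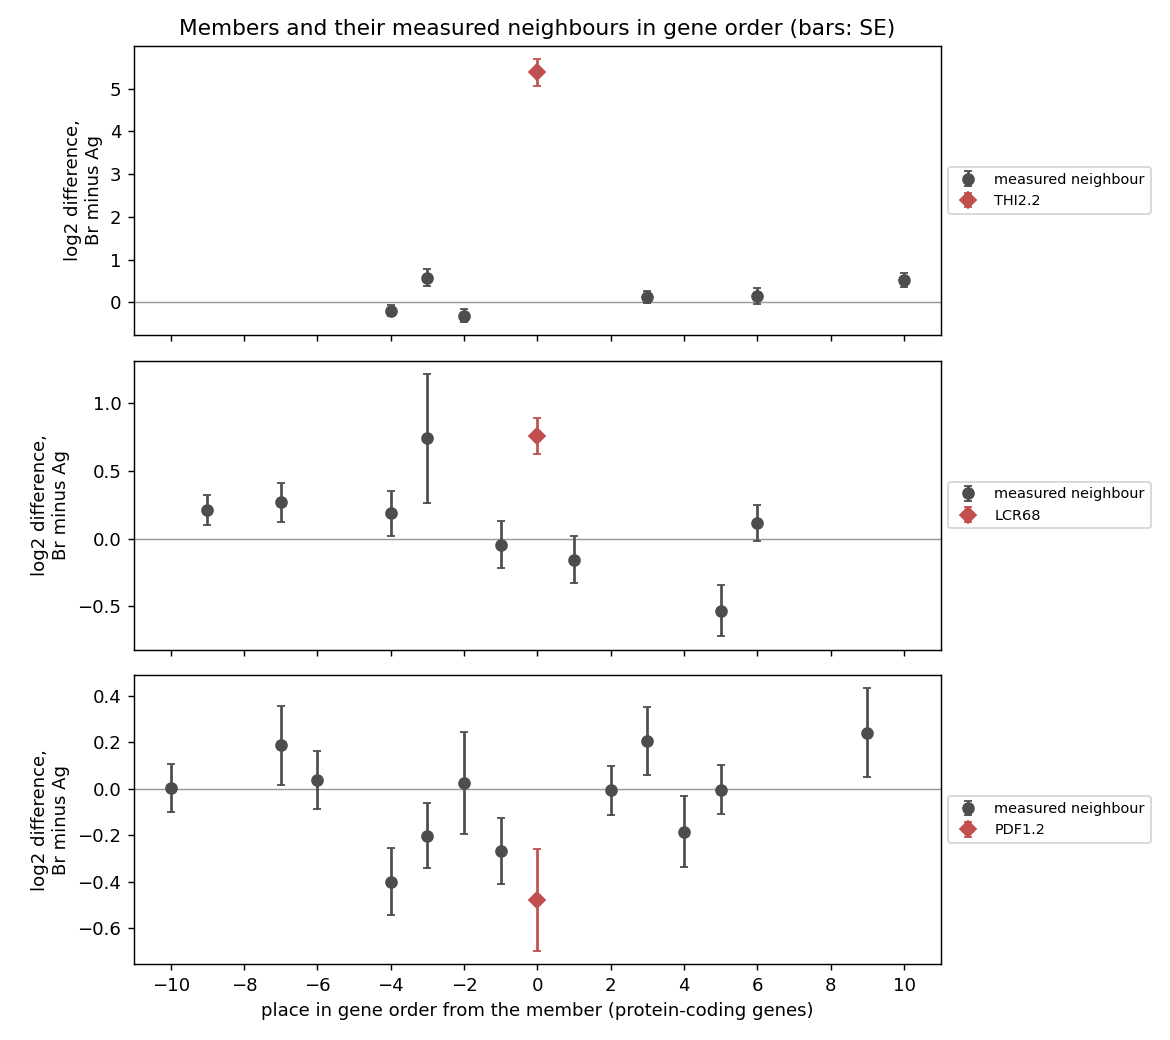
Log2 difference, Br minus Ag, with its SE (vertical axis) for each member and its measured neighbours by place in gene order (horizontal axis). THI2.2 stands at 5.38 among neighbours between -0.31 and 0.58, while LCR68 and PDF1.2 lie near the range of theirs.

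Defence signalling was described from lists of jasmonate, ethylene and salicylic acid genes. Few of these were read by a probe set with 1 annotated gene, the only kind used here to name genes. Listed genes read only by other probe sets were left out. Of 39 listed jasmonate genes 4 were measured, and by limma 1 fell (1.12% of all probe sets did) and 0 rose (0.963%). OPCL1, which activates a precursor of jasmonate for its shortening in the peroxisome, read 62.5, 75.0 and 80.4 on the Br arrays, against 146, 141 and 124 on the Ag arrays. Its groups did not overlap, and it fell by 0.82 on the log2 scale (SE 0.13, limma adjusted p = 0.033). The call was lost with a pseudocount of 1 (limma adjusted p = 0.11), without both first arrays (0.079) and without any one array except the first of Br (up to 0.14).

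The related transcription factor genes MYC3 and MYC4, which switch on jasmonate responses, read 80.8 ± 9.37 and 41.2 ± 1.44 in Br, against 59.3 ± 11.9 and 23.9 ± 9.72 in Ag (SD, n = 3 each). Every Br array was above every Ag array for both, as for 12.1% of all probe sets. For MYC3 the groups almost met, with the lowest Br array at 73.5 and the highest Ag array at 72.9. Both genes missed the threshold (limma adjusted p = 0.34 for MYC3 and 0.23 for MYC4). JMT, which makes methyl jasmonate, read 16.1, 62.5 and 25.6 in Br and 10.8, 36.6 and 19.0 in Ag, with overlapping groups (limma adjusted p = 0.78). Its second array was the highest of each group.

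Of 27 ethylene genes 2 were measured, and by limma 0 passed (2.08% of all probe sets did) and 1 had an unadjusted p under 0.05 (16.1% of all). EIN3, the transcription factor at the end of the ethylene pathway, read 432 ± 61.1 in Br and 503 ± 59.5 in Ag (SD, n = 3 each; limma adjusted p = 0.63). RTE1, which acts on the ethylene receptor ETR1, was between 58.9 and 112 in Br and between 114 and 152 in Ag (log2 difference -0.62, limma adjusted p = 0.22).

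Of 33 salicylic acid and pathogenesis-related genes 3 were measured, and by limma 0 passed (2.08% of all) and 1 had an unadjusted p under 0.05 (16.1% of all). WRKY53, a transcription factor gene of leaf senescence and defence, read 18.5, 14.0 and 9.78 in Br, against 25.4, 29.1 and 22.0 in Ag (log2 difference -0.54, limma adjusted p = 0.16). SAG101, a partner of the immune regulator EDS1, read 27.1 ± 7.30 in Br and 28.1 ± 7.15 in Ag (SD, n = 3 each; limma adjusted p = 0.82). BSMT1, which methylates salicylic acid and benzoic acid, read 2.52, 57.9 and 10.0 in Br, against 3.99, 0.72 and 1.42 in Ag, with overlapping groups (limma adjusted p = 0.45). The second Br array was the highest of the 6 for BSMT1, JMT and THI2.1 and the lowest for PDF1.2. ERF1, ORA59, COI1, MYC2, VSP1, VSP2, PR1, PR2, PR4 and PR5, and all 16 listed lipid transfer, snakin-type and related peptide genes, were not analysed here.

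Markers of other organs were few. The tapetum gene A9 (AT5G07230), 1 of 12 listed flower and seed genes measured, read 54.6, 10.1 and 29.0 in Br, against 2.06, 1.03 and 0.98 in Ag, without overlap, and missed the threshold (limma adjusted p = 0.097; unadjusted p = 0.0040). Its first Br array was the highest. PYK10, a beta-glucosidase abundant in roots and 1 of 10 listed root genes measured, ran from 65.9 to 438 in Br and from 163 to 236 in Ag. FAMA, a guard cell regulator and 1 of 10 listed epidermis genes measured, ran from 52.4 to 68.5 in Br and from 37.5 to 71.8 in Ag. The part of other organs in the THI2.2 difference was not tested.

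The named genes whose pattern over the 6 arrays was most like each member were found by Pearson correlation of normalized log2 values, among about 140 probe sets that had a gene symbol, were at least as bright as the median and had an SD of at least 0.5. Any gene with a gap between the groups scores high here, so the values only describe. THI2.2 was most like HVA22C, of a family named after an abscisic acid-induced barley gene (r = 0.99), the immune receptor gene CSA1 (0.98) and ty2, a thioredoxin gene (0.97). HVA22C read 190, 191 and 232 in Br, against 62.0, 76.2 and 65.4 in Ag. CSA1 read 168, 135 and 129 in Br, against 3.02, 7.73 and 5.73 in Ag, also dim in Ag, with its highest Br value on the array where THI2.2 was lowest.

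LCR68 was most like HVA22C (r = 0.96), the plastid cytochrome complex gene petN (0.96) and ty2 (0.96). It shared 2 of these with THI2.2, and ty2 read 546, 754 and 676 in Br, against 275, 302 and 205 in Ag. PDF1.2 had weaker matches, the highest being RD2 (0.85), ALDH6B2, an enzyme of valine breakdown (0.85), and the beta-glucosidase gene BGLU44 (0.83). These were the best of 140 candidates, and PDF1.2 was dim on every array, so its pattern says little. ALDH6B2 read 239, 102 and 92.9 in Br, against 536, 424 and 236 in Ag, so that, as for PDF1.2, its first array was the highest of each group.

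**Figure D4:**
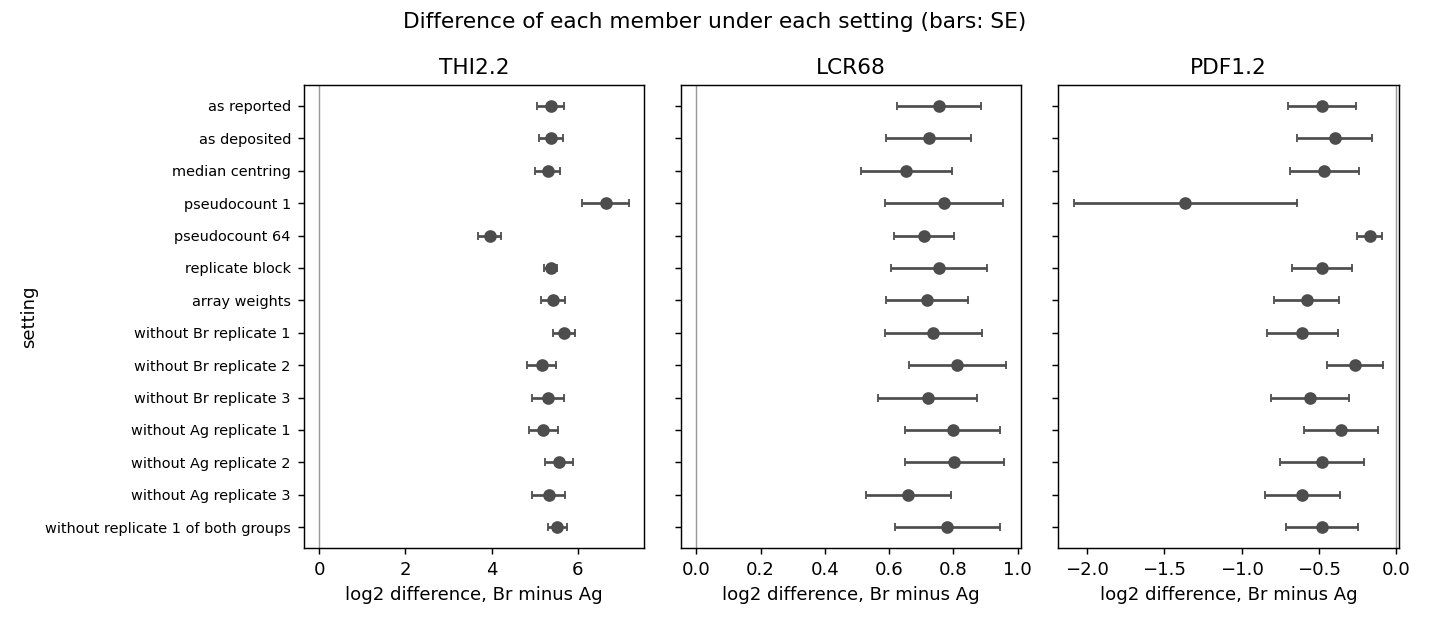
Log2 difference, Br minus Ag, with its SE (horizontal axis, one scale per panel) of each member as reported and under 13 other settings (rows). THI2.2 stays between 3.96 and 6.65, LCR68 between 0.65 and 0.81, and PDF1.2 between -1.37 and -0.17, the ends for THI2.2 and PDF1.2 being those with a pseudocount of 1 or 64.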

How the data were processed

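Intensities per probe set were used as deposited. On each array their mean, without the lowest and highest 2%, is 100, so they had been scaled before deposit; the summarisation software is not given in the sources used here. No column lacked a sample, and the 6 maize arrays were not used. After removal of 64 control probe sets, log2(intensity + 16) was quantile normalized, since array medians (5.59 to 5.74) differed by over 0.1, and fitted with limma 3.58.1 in R 4.3.3 (lmFit, eBayes, two-sided, Benjamini-Hochberg over 22746 probe sets, threshold 0.05). The pseudocount shrinks differences of dim genes. No arrays held identical values. On simulated arrays with independent noise and 200 changed bright probe sets, the fit recovered 45% of 2-fold and 87% of 4-fold changes for Br minus Ag, with 1 false call among 133.

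Genes were named from the platform annotation (13513 probe sets with 1 gene) and the TAIR10.1 gene table; no build is named for the values, so no coordinates are given. Members and lists were chosen with earlier results of these data known. Named were the members, the measured family, list genes that passed, genes fixed by name, and the 3 most like each member; the remaining list genes are named because so few were measured. Alternatives covered scaling, pseudocount, dim probe sets, pairing, variance model, array weights, threshold and arrays left out. Plots used matplotlib 3.10.9.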

Additional observations from a re-analysis of the deposited data

How the results depend on the processing

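The log2 differences of THI2.2 and LCR68 were positive and that of PDF1.2 negative under all 13 settings tried for them. All these settings draw on the same 6 arrays, whose values were known when the members were picked, so the constant sign only describes. Leaving out one array at a time gave 5.17 to 5.69 for THI2.2, 0.66 to 0.81 for LCR68 and -0.61 to -0.26 for PDF1.2. With a pseudocount of 1 the value for THI2.2 was 6.65 and for PDF1.2 -1.37, and with 64 that of THI2.2 was 3.96, since a larger pseudocount shrinks differences of dim signals. Over all probe sets 473 passed, 148 with a pseudocount of 1, 889 with array weights, 111 at an adjusted p of 0.01, and 105 to 884 without one array: 884 without Br array 1, 105 without Br array 2, 110 without Br array 3, 237 without Ag array 1, 119 without Ag array 2 and 143 without Ag array 3. Of the 12 family genes outside the trio, 0 to 1 passed without one array, LCR66 passing without the second Br array. Of the 4 jasmonate genes 1 passed, and 0 with a pseudocount of 1, with the replicate number as a block, without both first arrays or at an adjusted p of 0.01 (0 to 1 without one array). With the replicate block 347 probe sets passed in all, and adjusted p for OPCL1 was 0.076. Of the ethylene and salicylic acid genes 0 passed under each setting run. With only probe sets brighter than the median, 0 salicylic acid genes were left to test, so that setting says nothing about them. The replicate numbers were not taken as pairing: deviations of same-numbered arrays correlated at 0.32, 0.03 and 0.11, and Br array 2 correlated best with Ag array 3 (0.23). The cause of these shifts other than the pseudocount's was not tested. Probe sets below the array medians, which include PDF1.2 and most family genes, limit what can be seen.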
